A study of Mus musculus with 8 samples.

Results

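The Ikaros family holds 5 genes in the mouse, Ikzf1 (Ikaros), Ikzf2 (Helios), Ikzf3 (Aiolos), Ikzf4 (Eos) and Ikzf5 (Pegasus). They were found by symbol among 52459 genes in a table of normalized counts from 8 RNA-seq libraries of regulatory T (Treg) cells, and all 5 had enough reads to be tested. The libraries form 4 groups of 2: WT unstimulated (replicates 3 and 4), Stim1/2-deficient unstimulated, WT after 16 h and Stim1/2-deficient after 16 h (replicates 1 and 2 of each). Stimulation was with plate-bound antibodies to CD3 and CD28 at 1 µg/ml. STIM1 and STIM2 open the CRAC channel when the calcium store of the endoplasmic reticulum is emptied, and the comparison asks which genes depend on this calcium entry. The deficient cells carry Stim1 fl/fl, Stim2 fl/fl and Foxp3-YFPcre, in which the Foxp3 promoter drives Cre. Per the methods, both genotypes were sorted from the same kind of animal, pooled C57BL/6 females heterozygous for Foxp3-YFPcre, as CD4+CD25hi cells of spleen and lymph nodes without (WT) or with YFPcre. All groups therefore share the floxed alleles, and genotype is bound to the YFPcre allele. The age of the mice is not given in the sources used here.

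Ikaros factors are zinc finger proteins of lymphocytes. Fingers in the middle of the protein bind DNA and those at its C terminus join family members into pairs, which bring repressor complexes such as NuRD to their targets. In Treg cells, Helios is known as a factor for a stable identity, Eos as a partner with which Foxp3 silences genes, and Ikaros and Aiolos as factors that B cells and other T cells use too. Pegasus is the most distant relative and prefers another DNA sequence.

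A gene was called if its adjusted p (limma, Benjamini-Hochberg) was under 0.05 and it changed by over 1.5-fold, among 15419 tested genes. Differences are on the log2 scale after adding 1, stimulated minus unstimulated or deficient minus WT. Libraries held 11851853 to 16306540 reads on genes, and 1 read was worth 0.759 to 1.48 normalized counts. Counts of Stim1 did not show its deletion, with 1139 and 1377 in unstimulated WT against 1538 and 1868, and 645 and 673 against 552 and 642 after stimulation. Nor did those of Stim2, at 906 and 908 against 904 and 744 and then 665 and 782 against 620.2 and 696. These are reads summed over each gene, which can stay level when only some of its exons are removed, so they do not check the labels. The libraries are named by their label, DKO. The Treg markers Foxp3, Il2ra, Ctla4, Cd4 and Cd3e were present in all 8. DKO unstimulated replicate 1 stood apart, with 7107 normalized counts over 9 myeloid markers, where its partner had 1149.9 and the unstimulated WT pair 186 and 209.8. A library is 1 pool of mice, and each p-value rests on a spread between pools that limma shared over the 4 groups of 2. The file names put unstimulated and stimulated libraries in different lanes, so stimulation and lane cannot be told apart.

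Helios was the only family member called between genotypes. Before stimulation, Ikzf2 stood at 18953 and 19707 normalized counts in WT and at 8398 and 9233 in DKO. Both DKO values lay far below both WT values, and the gap was many times the distance within a pair. Ikzf2 was 2.19-fold lower (95% interval 1.64 to 2.93), a log2 difference of -1.13 (SE 0.19, adjusted p by limma 0.0142). It was 1 of 517 genes called lower, or 3.35% of those tested. Without DKO replicate 1, the library rich in myeloid markers, the difference was -1.07 and remained called (adjusted p by limma 0.0152). It was no longer called without WT replicate 3 (-1.16, adjusted p by limma 0.191) or WT replicate 4 (-1.11, adjusted p by limma 0.0969). Ikzf2 spans 69531207 to 69687351 of chromosome 1 (GRCm38.p6).

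After stimulation, Ikzf2 stood at 18887 and 20751 in WT and at 9692 and 13079 in DKO. Again both DKO values lay below both WT values, as they did for 23.1% of all tested genes, and 27.1% before stimulation. The level was 1.76-fold lower (95% interval 1.32 to 2.35), at a log2 difference of -0.81 that did not pass (adjusted p by limma 0.0929). DESeq2 on the reads recovered from the table called it (-0.80, adjusted p 0.0117). The genotype differences before and after stimulation were not shown to be unequal, with an interaction of 0.32 (95% interval -0.27 to 0.91, adjusted p by limma 0.764). Within WT, the stimulated and unstimulated values of Ikzf2 overlapped, at a difference of 0.03 (95% interval -0.38 to 0.45). Within DKO, both stimulated values were the higher, as for 30.8% of all genes, by 0.35 (adjusted p by limma 0.190).

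Fewer cells with a transcript and less transcript per cell cannot be told apart in bulk RNA. Foxp3, the factor that defines Treg cells, stood at 10001 and 8159 in unstimulated WT and 4947 and 4258 in DKO, a log2 difference of -0.98 (adjusted p by limma 0.0591). For each Foxp3 read there were 1.90 and 2.42 Ikzf2 reads in WT and 1.70 and 2.17 in DKO, and the genotypes overlapped on this ratio, which was picked after seeing values. They overlapped after stimulation as well. In unstimulated cells, reads per Foxp3 read were higher in DKO without overlap for Ikzf1, Ikzf3 and Ikzf4. For Ikzf3 they were 0.746 and 0.836 in WT against 1.35 and 1.29 in DKO. For Ikzf4 they were 0.289 and 0.352 against 0.444 and 0.567. Relative to Foxp3, itself lower in DKO, Ikzf3 and Ikzf4 were thus not lower in unstimulated DKO. For each read of Cd3e, a chain of the T cell receptor complex, there were 5.54 and 5.98 Ikzf2 reads in WT against 2.76 and 2.93 in DKO, and after stimulation 7.08 and 7.11 against 3.86 and 5.21. On that ratio the genotypes did not overlap in either state. Per Cd3e read in unstimulated cells, Ikzf1 was higher in DKO and Ikzf3 overlapped. Ikzf4 was lower, at 0.845 and 0.872 in WT against 0.722 and 0.766 in DKO. The 5 Treg markers summed to 72949 and 65897 normalized counts in unstimulated WT and 31711 and 38572 in DKO. Of these 5, 1 was called lower, as were 3.35% of all genes. This was Ctla4, at 37403 and 35119 in unstimulated WT and at 6338 and 17333 in DKO, far apart within the DKO pair. The markers did not fall alike. Il2ra was at 11360 and 10408 against 7021 and 6821, and Cd3e at 3424 and 3294 against 3042 and 3156. Cd4 overlapped, at 10760 and 8918 against 10363 and 7005. The 5 markers of naive conventional T cells summed to 17560.0 and 15085 against 17083 and 20685, and after stimulation to 5593 and 6630.1 against 10764 and 17734. The part of other T cells in the Ikzf2 difference was not tested.

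Ikaros stood higher in DKO, without a call. Before stimulation, Ikzf1 was at 6887 and 6659 in WT and at 10566 and 8927 in DKO. Both DKO values lay above both WT values, as they did for 26.5% of all genes, and the difference was 0.52 (SE 0.17, adjusted p by limma 0.106), or 1.43-fold (95% interval 1.11 to 1.86). Without DKO replicate 2 it was 0.64 and called (adjusted p by limma 0.0299), and without DKO replicate 1 it was 0.40 (adjusted p by limma 0.148). After stimulation, Ikzf1 was at 5160.2 and 5568 in WT and at 6291 and 6951 in DKO. The pairs were again apart, as for 24.3% of genes, at a difference of 0.30 (95% interval -0.07 to 0.67, adjusted p by limma 0.470). Ikzf1 spans 11684962 to 11772930 of chromosome 11 (GRCm38.p6). Gm12000, annotated inside it on the opposite strand, was at 91.7 and 105 in unstimulated WT and 186 and 168 in DKO. The sources disagree on whether the kit kept the strand, so reads of this pair cannot be told apart.

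**Figure D1:**
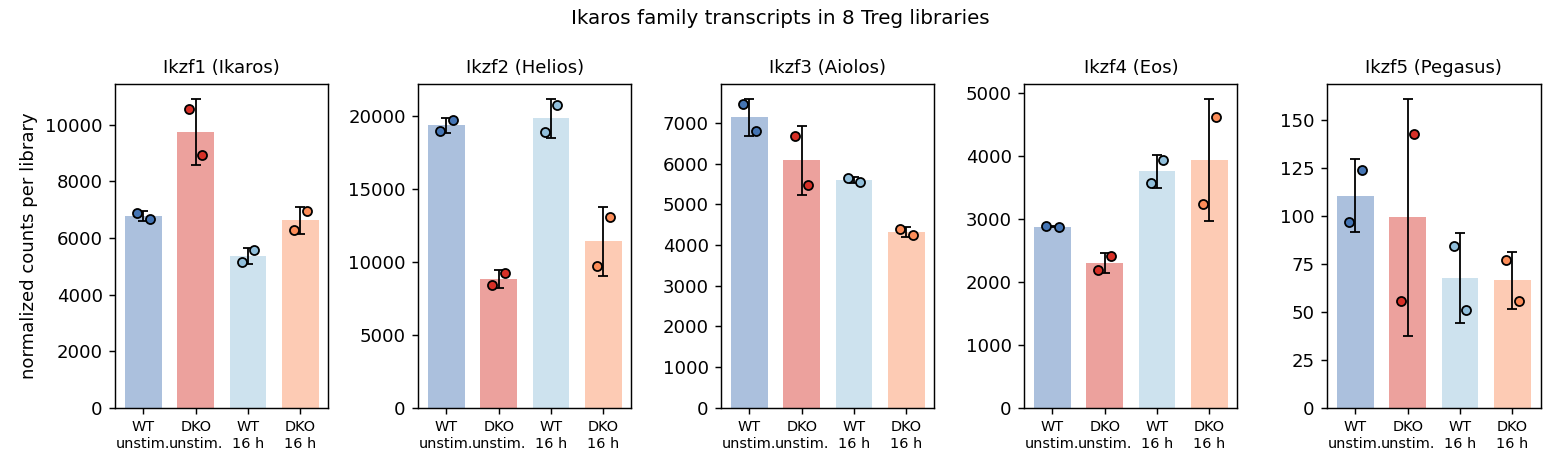
Normalized counts of the 5 Ikaros family genes (vertical axes, each from 0) in WT and Stim1/2-deficient (DKO) Treg libraries, unstimulated or stimulated for 16 h; points are libraries, bars are means of 2 libraries and error bars are SD. Ikzf2 lies between 18887 and 20751 in the 4 WT libraries and between 8398 and 13079 in the 4 DKO libraries.

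Of the 5 members, RefSeq promoter windows (GRCm38.p6) were matched for Ikzf1, with 2 starts, and for Ikzf5. The 250 bases before each Ikzf1 start are shown because Ikaros factors bind the core letters GGGAA, which were searched for in them. They lie on the plus strand at chr11:11685675-11685924 and chr11:11689927-11690176, and capitals mark GGGAA on either strand. Both windows lie inside the span of Ikzf1, which begins at 11684962, so neither precedes the first annotated base of the gene.
Ikzf1 first start: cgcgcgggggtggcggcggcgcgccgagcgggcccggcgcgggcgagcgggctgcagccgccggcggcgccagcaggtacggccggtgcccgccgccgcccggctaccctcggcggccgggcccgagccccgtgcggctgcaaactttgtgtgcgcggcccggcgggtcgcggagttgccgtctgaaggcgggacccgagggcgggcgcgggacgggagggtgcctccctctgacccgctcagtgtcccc
Ikzf1 second start: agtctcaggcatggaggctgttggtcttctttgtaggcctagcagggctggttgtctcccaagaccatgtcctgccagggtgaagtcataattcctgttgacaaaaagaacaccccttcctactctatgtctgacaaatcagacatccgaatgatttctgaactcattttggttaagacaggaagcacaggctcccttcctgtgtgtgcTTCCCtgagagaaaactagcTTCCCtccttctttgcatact
The first window is 82.0% G and C and holds 0 matches, the second 47.6% with 2. Of 32851 windows of the same length, 56.2% hold at least 1. GGAAA, the core bound by NFAT, shares 4 letters with GGGAA, has 0 matches in either window and occurs in 55.6% of all windows. These are matches of letters and not measured binding, and which start the reads came from was not analysed here.

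In normalized counts, Aiolos stood lower in DKO, without a call. Before stimulation, Ikzf3 was at 7458 and 6817 in WT and at 6678 and 5489 in DKO. The pairs were separated by less than the distance within a pair, though without overlap, as for 27.1% of genes, with a difference of -0.24 (95% interval -0.61 to 0.14, adjusted p by limma 0.452). After stimulation, Ikzf3 was at 5646 and 5547 in WT and at 4402 and 4237 in DKO. Here the values of a pair lay close together and the pairs apart, as for 23.1% of genes, yet the difference of -0.37 (SE 0.17) did not pass either (adjusted p by limma 0.364). Ikzf3 spans 98464610 to 98546031 of chromosome 11 (GRCm38.p6).

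Since B cells use Ikaros and Aiolos, 7 of their markers were summed in each library. The sums were 284 and 315 normalized counts in unstimulated WT, 2944 and 696 in unstimulated DKO, 894 and 169 in stimulated WT and 1305 and 274 in stimulated DKO. In stimulated WT, the library with more B cell markers had the lower Ikzf1 value and about the same Ikzf3 value as its partner. In stimulated DKO, the library with more of them had the lower Ikzf1 value (6291 against 6951) and the higher Ikzf3 value (4402 against 4237). In unstimulated DKO, replicate 1 was higher than replicate 2 in B cell markers, in myeloid markers, in Ikzf1 and in Ikzf3. Of the 9 myeloid markers 7 were called higher in unstimulated DKO, and of the B cell markers 1, where 4.73% of all genes were called in either direction. The part of these cells in the Ikzf1 difference was not tested. After stimulation, myeloid markers summed to 184 and 103 in WT, where C1qa, C1qc and Mrc1 were at 0, and to 288 and 263 in DKO, where C1qa, C1qb and Mrc1 were at 0.

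**Figure D2:**
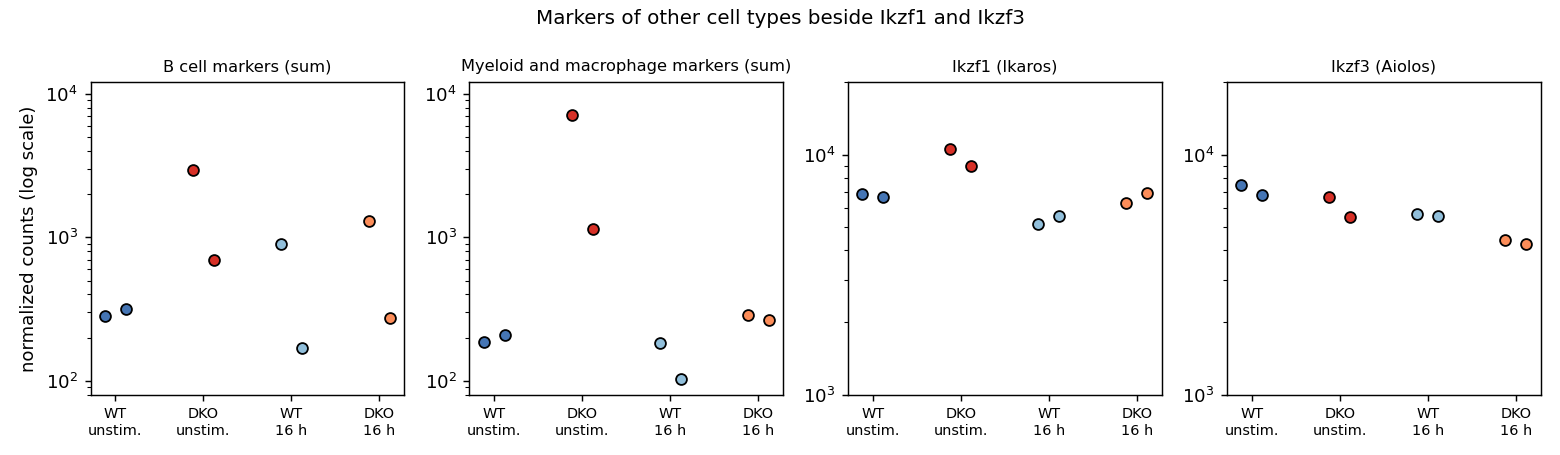
Summed normalized counts of 7 B cell markers and 9 myeloid and macrophage markers, and normalized counts of Ikzf1 and Ikzf3, on log axes with 1 point per library. The myeloid sum is 7107 and 1149.9 in the 2 unstimulated DKO libraries, where Ikzf1 is at 10566 and 8927 and Ikzf3 at 6678 and 5489. The part of other cells in the levels of Ikzf1 and Ikzf3 was not tested.

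Eos was called higher after stimulation in DKO. Ikzf4 was at 2196 and 2416 before and 3248 and 4624 after stimulation. Both stimulated values lay above both unstimulated ones, though far from each other. Ikzf4 rose 1.68-fold (95% interval 1.24 to 2.28), by 0.75 on the log2 scale (SE 0.20, adjusted p by limma 0.0204), where 13% of all genes were called higher and 30.8% lay above without overlap. It was not called without stimulated DKO replicate 2 (0.50, adjusted p by limma 0.130). In WT, Ikzf4 was at 2892 and 2872 before and 3578 and 3947 after stimulation. The pairs did not overlap, as for 35% of genes, and the difference of 0.38 did not pass (adjusted p by limma 0.185). With libraries rescaled to equal totals it was 0.90 and called (adjusted p by limma 0.00667), but that scaling moved the median of all genes by 0.51, and relative to it Ikzf4 was at 0.39. That DKO responded more than WT was not shown, with an interaction of 0.37 (95% interval -0.25 to 0.99, adjusted p by limma 0.740). Between genotypes, Ikzf4 differed by -0.32 before (adjusted p by limma 0.373) and 0.04 after stimulation (adjusted p by limma 0.954). Ikzf4 spans 128630839 to 128669671 of chromosome 10 (GRCm38.p6), and Gm26876, a noncoding gene within it, reached 12.7 normalized counts at most.

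Ikaros and Aiolos stood lower after stimulation in both genotypes. For Ikzf1 the difference was -0.55 in DKO (SE 0.17, adjusted p by limma 0.0353), which passed on p, as 12.2% of genes did in that direction, but at 1.47-fold stayed under the fold threshold. In WT it was -0.34 (adjusted p by limma 0.169). For Ikzf3 it was -0.49 in DKO (adjusted p by limma 0.0580) and -0.35 in WT (adjusted p by limma 0.158). All stimulated values lay below the unstimulated ones for both genes, as for 36% of genes in WT and 30.6% in DKO. These directions are relative to the other genes. With libraries rescaled to equal totals, the median of all genes moved by 0.51 in WT and 0.38 in DKO, and Ikzf1 and Ikzf3 in WT then read 0.18 and 0.17. Relative to the median they were at -0.33 and -0.34, against -0.34 and -0.35 as deposited.

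**Figure D3:**
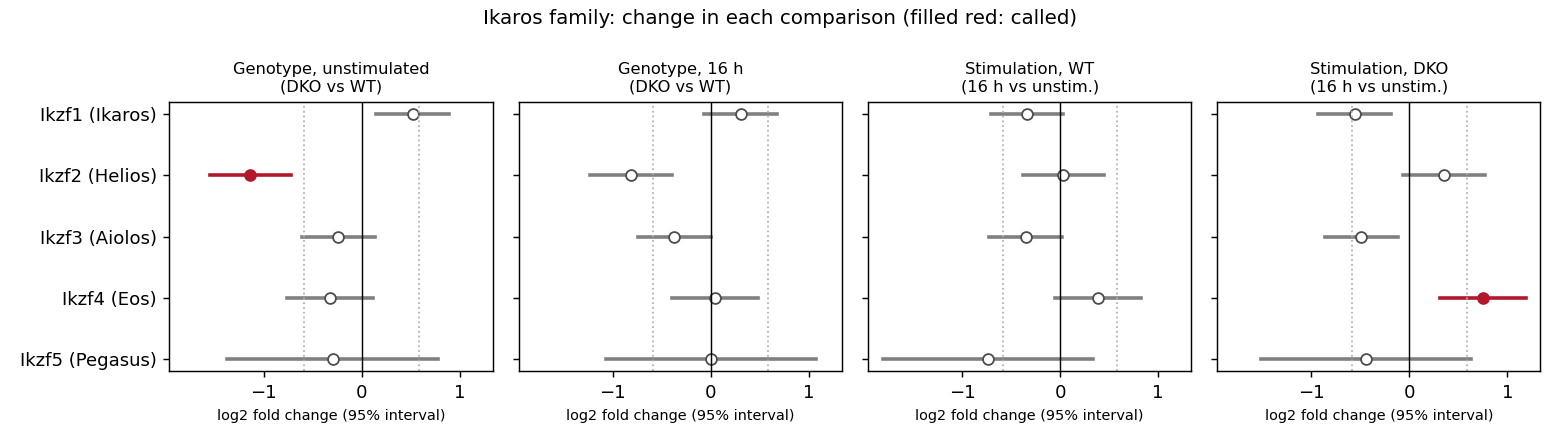
Log2 differences (horizontal axis) of the 5 genes by genotype and by stimulation, as limma estimates with 95% intervals; dotted lines mark 1.5-fold and filled red points are called. The called genes are Ikzf2 by genotype before stimulation (-1.13) and Ikzf4 by stimulation in DKO (0.75).

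Pegasus was scarce. Ikzf5 was at 97.1 and 124 in unstimulated WT, 55.6 and 143 in unstimulated DKO, 84.2 and 50.9 in stimulated WT and 77.0 and 55.7 in stimulated DKO. The unstimulated DKO pair held both the lowest and the highest unstimulated value, and the values rest on 53 to 108 reads a library. The genotype difference was -0.30 before (95% interval -1.37 to 0.78) and 0.00 after stimulation (95% interval -1.07 to 1.07), so that changes within these intervals could not be told from none. Ikzf5 spans 131388649 to 131410518 of chromosome 7 (GRCm38.p6), and its end overlaps Pstk (131371113 to 131392768), which was at 111 to 256 normalized counts.

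Over the family, 1 of 5 genes was called by genotype before stimulation, where 4.73% of all genes were, and 0 of 5 after it (0.272% of all genes). By stimulation, 0 of 5 were called in WT (23.3%) and 1 of 5 in DKO (25%). As an interaction, limma called 0 genes (0%), edgeR 0 and DESeq2 47, with an unadjusted p under 0.05 for 1257 genes (8.15%). Before stimulation, 1 genotype difference lay above 0 and 4 below. Their median was -0.30, against -0.01 over all genes, and is the value of the scarce Ikzf5. After stimulation the median was 0.00, against 0.02 over all genes.

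To compare members with each other, levels were divided by exon length in GENCODE M1 (5.92 kb for Ikzf1, 9.42 for Ikzf2, 8.75 for Ikzf3, 6.00 for Ikzf4 and 4.88 for Ikzf5). In unstimulated WT, the normalized counts per kb of exon were 2013 and 2093 for Ikzf2, 1164 and 1125 for Ikzf1, 852 and 779 for Ikzf3, 482 and 479 for Ikzf4 and 19.9 and 25.4 for Ikzf5, and no neighbours overlapped. In unstimulated DKO, Ikzf1 (1785 and 1508 per kb) came first, then Ikzf2 (892 and 980.4), Ikzf3 (763 and 627) and Ikzf4 (366 and 403). Helios and Ikaros thus changed places between the genotypes. In stimulated WT, Ikzf2 (2006 and 2204 per kb) led Ikzf1 (872 and 941), while Ikzf3 (645 and 634) and Ikzf4 (597 and 658) overlapped. In stimulated DKO, Ikzf2 (1029 and 1389 per kb) and Ikzf1 (1063 and 1174) overlapped, and Ikzf4 (542 and 771) stood above Ikzf3 (503 and 484).

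Of the family's summed level per kb of exon, Helios made up 45.5% ± 1.46 (SD, n = 2) in unstimulated WT and 25.5% ± 3.02 in DKO. After stimulation its share was 49.0% ± 0.756 and 34.5% ± 2.56. The share of Ikaros was 25.3% ± 0.486 and 44.6% ± 3.01 before and 21.1% ± 0.0556 and 32.2% ± 2.16 after stimulation, and for both genes the genotypes did not overlap in either state. The shares of a library add up to the whole, so a lower level of Helios by itself raises the other shares. The higher share of Ikaros is therefore not separate from the lower share of Helios. Aiolos (18.1% ± 1.06 and 18.8% ± 1.63) and Eos (10.6% ± 0.00422 and 10.5% ± 1.25) overlapped between genotypes before stimulation. The order and the shares depend on the length chosen, which the SDs do not cover. On coding sequence, Helios made up 53.0% and 55.3% in unstimulated WT and 30.7% and 36.0% in DKO. Eos made up 6.20% and 6.18% in unstimulated WT on that length. Per kb of coding sequence, Ikzf3 (4903 and 4482) stood above Ikzf1 (4259 and 4118) in unstimulated WT, and Ikzf1 (6534 and 5521) overlapped Ikzf2 (5322 and 5851) in unstimulated DKO.

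**Figure D4:**
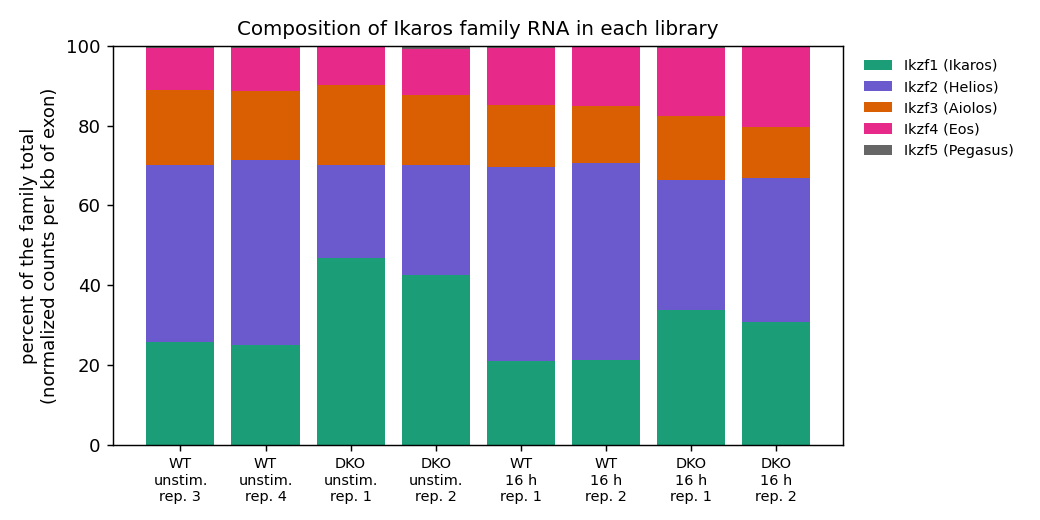
Percent of the summed Ikaros family level (normalized counts per kb of exon, vertical axis) that each member makes up in each of 8 libraries. Helios makes up 44.4% to 49.6% in the 4 WT and 23.4% to 36.3% in the 4 DKO libraries.

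Ratios of reads within a library are free of the scaling between libraries. There were 2.75 and 2.96 Ikzf2 reads per Ikzf1 read in unstimulated WT and 0.795 and 1.03 in DKO, and after stimulation 3.66 and 3.73 in WT against 1.54 and 1.88 in DKO. Every WT library was above every DKO library, and within each genotype the stimulated pair was above the unstimulated one. For Ikzf3 to Ikzf1 the ratios were 1.08 and 1.02 and, after stimulation, 1.09 and 0.996 in WT, against 0.632 and 0.615 and, after stimulation, 0.70 and 0.610 in DKO. This ratio separated the genotypes but not the states of stimulation. For Ikzf2 to Ikzf4 they were 6.55 and 6.86 in unstimulated WT, 5.28 and 5.26 in stimulated WT, 3.82 and 3.82 in unstimulated DKO and 2.98 and 2.83 in stimulated DKO.

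Genes most like each member were found by Pearson's r of log2 values over the 8 libraries, which share 4 groups, among 9146 genes (9147 for Ikzf5). For Ikzf2 they included Nt5e (r = 0.985), which encodes the adenosine-producing enzyme CD73, and Slc41a1 (r = 0.977), a magnesium transporter, with Flt3l (r = -0.949), a cytokine, the most opposed. For Ikzf1 they included Rhoh (r = 0.986), a GTPase of blood cells, and Herc2 (r = 0.979), a ubiquitin ligase, against Anapc1 (r = -0.986). For Ikzf3 they were Hmgb2 (r = 0.991), a chromatin protein, Fbxw5 (r = 0.977) and Ucp2 (r = 0.975), against Ncoa3 (r = -0.994). For Ikzf4 they were Nudt3 (r = 0.976), Phgdh (r = 0.972), an enzyme of serine synthesis, and 1810030O07Rik (r = 0.972), against Gpr174 (r = -0.970). For Ikzf5 they were Coa7 (r = 0.964), Nmd3 (r = 0.957) and Fam76b (r = 0.951), against Brat1 (r = -0.975). Within the family, Ikzf1 ran opposite to Ikzf2 (r = -0.753) and Ikzf4 (r = -0.743).

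NuRD, a remodelling complex with histone deacetylases, is the best known partner of Ikaros factors. Of 13 NuRD and histone deacetylase genes, 0 were called higher and 1 lower before stimulation (median -0.35, against -0.01 over all genes, of which 4.73% were called), and 0 after it (median -0.01, with 0.272% of all genes called). Rbbp7, a histone-binding subunit, fell from 2554 and 2059 in WT to 1179 and 1413 in DKO (-0.83, adjusted p by limma 0.0374), and was called in 6 of 13 alternatives. Of 6 other corepressor and remodelling genes, 0 were called in either state. By stimulation, 1 of the 13 rose and 2 fell in WT, and 3 rose and 1 fell in DKO, where 23.3% and 25% of all genes were called. Mbd3, a core NuRD subunit, rose in both, from 132 and 93.1 to 294 and 340.2 in WT and from 98.6 and 70.8 to 282 and 258 in DKO. In WT, Chd4, the ATPase of NuRD, fell by 0.73 (adjusted p by limma 0.0191) and Gatad2b by 0.70 (adjusted p by limma 0.0409). In DKO, Rbbp7 rose by 1.24 (adjusted p by limma 0.00185) and Mta1 by 0.70 (adjusted p by limma 0.0410, called in 6 of 14 alternatives), and Chd3 fell by 0.65 (adjusted p by limma 0.0388). Of the 6 others, Ctbp2 fell in WT, from 101 and 108 to 53.0 and 29.6, and Smarcc1 and Sin3b rose in DKO by 0.80 and 0.77. With equal totals, Chd4, Gatad2b, Ctbp2 and Chd3 were not called. Chd4 was called in 8 of 13 alternatives, Gatad2b in 7 of 13, Ctbp2 in 3 of 12 and Chd3 in 6 of 14. Chd4, Gatad2b and Ctbp2 were not called once any 1 of the 4 WT libraries was left out, nor Mta1 and Chd3 once any 1 of the 4 DKO libraries was.

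The human cereblon ubiquitin ligase degrades Ikaros and Aiolos when it has bound a thalidomide analogue, and the labels name no such drug. Of the 5 mouse genes of this ligase, 1 was called lower by genotype before stimulation (3.35% of all genes) and 0 after it (0.272% called in either direction). Ddb1, the adaptor, fell from 4747 and 4130.2 in WT to 1818 and 2702 in DKO (adjusted p by limma 0.0353), but was not called without DKO replicate 1 (-0.71, adjusted p by limma 0.0632). Crbn, which encodes cereblon, fell with stimulation from 2337 and 2511 to 1084 and 1229 in WT (-1.07, adjusted p by limma 0.0150) and from 1467 and 2620.3 to 1043 and 1193 in DKO (-0.81, adjusted p by limma 0.0413). Cul4b, a cullin, fell by 0.89 (adjusted p by limma 0.00738) and 0.68 (adjusted p by limma 0.0199). With equal totals, neither gene was called. Both calls in WT were lost once any 1 of the 4 WT libraries was left out, and both in DKO without unstimulated replicate 2 or stimulated replicate 2.

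Of 14 genes reported as targets of Ikaros factors in lymphocytes, Hes1, Dntt and Ptcra were too low to test. Of the other 11, 1 was called higher and 2 lower in DKO before stimulation (median -0.68, against -0.01 over all genes, of which 4.73% were called). Bcl2, an inhibitor of cell death, rose from 3345 and 3254 in WT to 7569.7 and 6538 in DKO (1.09, adjusted p by limma 0.0142). Cdk6, a cell cycle kinase, fell from 8599 and 8114 to 3879 and 3265 (adjusted p by limma 0.0111), and Prdm1, which encodes Blimp-1, from 2050.4 and 1637 to 382 and 196 (adjusted p by limma 0.00538). After stimulation, Bcl2 alone was called (1.11, adjusted p by limma 0.0432), and in 6 of 14 alternatives. By stimulation, 2 rose and 3 fell in WT, and 6 rose and 3 fell in DKO, beside 23.3% and 25% of all genes called. Il2, a cytokine gene that Treg cells keep silent, rose from 17.3 and 17.7 to 1469.9 and 771 in WT and from 19.9 and 4.01 to 2248 and 266 in DKO. In both genotypes the stimulated values lay far apart, and the higher one was in the library with more B cell markers and more of 5 CD8 T and NK cell markers, which summed to 459 and 227 in WT and 1049.8 and 382 in DKO. Their part was not tested. Ifng, another cytokine gene, rose in DKO from 142 and 25.4 to 1201 and 198 (adjusted p by limma 0.0350), again highest in the libraries with more of these markers (841 and 295 before stimulation). It was called in 10 of 14 alternatives, over which the difference ran from 1.69 to 4.29, and was not called without unstimulated DKO replicate 2 or stimulated DKO replicate 1. Myc rose in both genotypes, and Bcl6, Dtx1 and Il7r fell in both, Dtx1 by 2.57 in WT and 3.95 in DKO.

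Of 5 factors described to act with Foxp3 and Eos, 1 was called by genotype, where 4.73% of all genes were called before stimulation and 0.272% after it. This was Irf4, at 3543 and 3498 in unstimulated WT and 862 and 1029.7 in DKO (-1.90, adjusted p by limma 0.00880). It rose with stimulation by 1.79 in WT (adjusted p by limma 0.00255) and 3.32 in DKO (adjusted p by limma 1.9e-04), without a called interaction (adjusted p by limma 0.556). Satb1, a chromatin organiser, fell with stimulation in WT (-1.95) and DKO (-1.12), and Gata1 rose in DKO from 33.5 and 49.4 to 160.4 and 258. With equal totals, the fall of Satb1 in DKO was not called. The genes of these lists called by genotype before stimulation (Rbbp7, Ddb1, Bcl2, Cdk6, Prdm1 and Irf4) were, like Ikzf2, not called without WT replicate 3 or without WT replicate 4. Without replicate 3 the whole table gave 8 calls and without replicate 4 23.

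**Figure D5:**
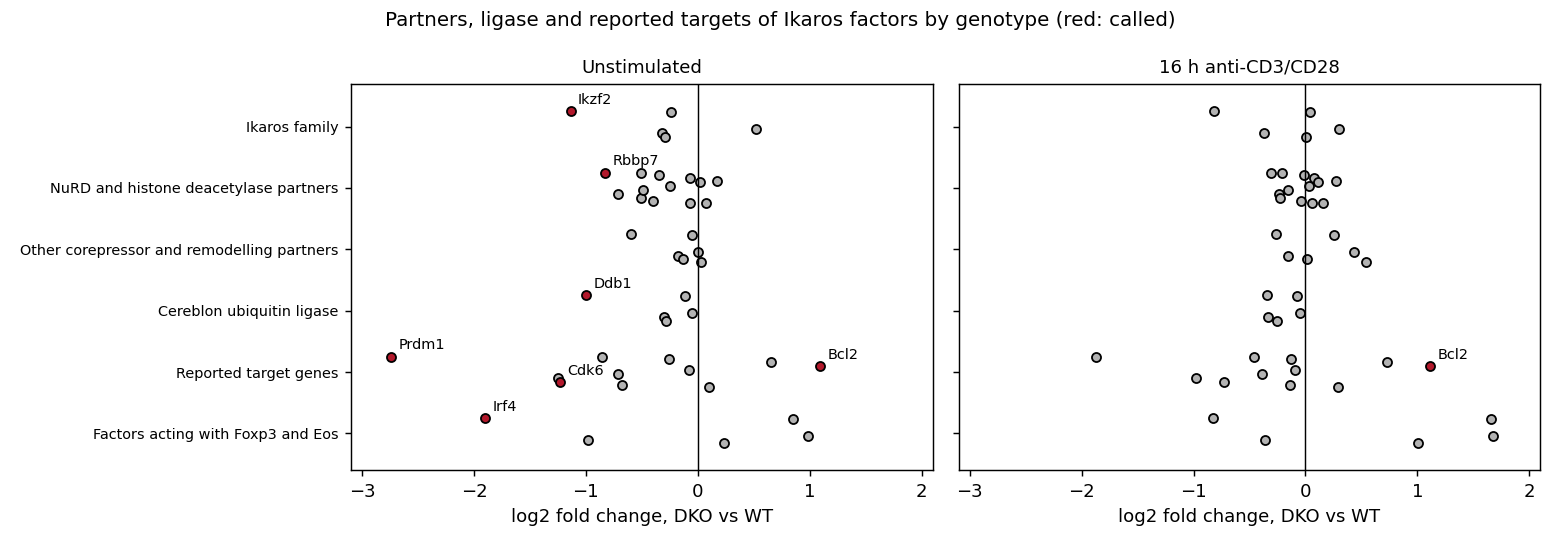
Log2 differences between genotypes (DKO minus WT, horizontal axis) of the Ikaros family and 5 lists of partner, ligase and target genes, in unstimulated and stimulated Treg cells; each point is 1 tested gene and named red points are called. Before stimulation Prdm1 (-2.74) and Irf4 (-1.90) are the lowest called genes and Bcl2 (1.09) is the only one called higher, and after stimulation Bcl2 alone is called.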

How the data were processed

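RNA of sorted Treg cells was sequenced in 8 libraries. The deposited values are a signal: for each gene, the authors' read count over a size factor of its library, with 2 decimals. The methods name Bowtie, NCBIM37, Picard, HTSeq and DESeq2, and the submitters' processing notes name STAR 2.7, mm10 and DESeq2. Symbols matched RefSeq on GRCm38.p6 for 84.5% of tested genes and GENCODE M1 on NCBIM37 for 77.7%, and positions are on GRCm38.p6. Whole reads were recovered from 100% of values (tolerance 0.006 normalized counts).

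Genes averaging 10 or more normalized counts entered limma 3.58.1 (R 4.3.3, eBayes with trend) as log2 of the value plus 1, in a model of 4 groups with a common variance. Tests are 2-sided and adjusted within each comparison. The study used DESeq2. Here the values were no longer counts, so DESeq2 1.42.0 and edgeR 4.0.16 (quasi-likelihood) on recovered reads were alternatives, beside pseudocounts of 0.1 and 5, other filters and scalings, fits to 4 libraries, a replicate term and each library left out. The code was tested on simulated data. Named are all members, listed genes called by genotype, at most 3 listed genes called per direction by stimulation, and for each member the 3 most similar genes and the most opposed one with a mean of at least 100, of which some are not reported here. Members and lists were chosen with earlier results of these data known. Ratios to Foxp3 and Cd3e and levels per coding length were added after seeing the data.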

Additional observations from a re-analysis of the deposited data

How the results depend on the processing

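The number of family genes called by genotype before stimulation, 1, became 0 in a fit to those 4 libraries and 0 to 2 with each library left out (0 without WT replicate 3 or 4, 2 without DKO replicate 2). Ikzf2 ranged from -1.20 to -0.97 over 13 alternatives and was called in 10. By genotype after stimulation, 0 became 1 with DESeq2 and 1 with the replicate block (Ikzf2, adjusted p by limma 0.0251). By stimulation in WT, 0 became 1 with equal totals (Ikzf4, 0.90). By stimulation in DKO, 1 became 2 with equal totals (with Ikzf2), 2 with equal upper quartiles (with Ikzf1), 0 in a fit to 4 libraries, 0 with the replicate block (Ikzf4, adjusted p by limma 0.0535), and 0 to 3 with each library left out (0 without stimulated DKO replicate 2, 3 without unstimulated DKO replicate 2). The interaction had 0 throughout. The replicate numbers are shared in only 2 pairs, their deviations correlated at 0.167 (genotype) and 0.257 (stimulation in DKO), and they were not taken as pairs; the unstimulated WT libraries share no number with other groups. Of 345 values of members under alternatives, 16 changed sign. Among them, with equal totals, were Ikzf1 (0.18) and Ikzf3 (0.17) by stimulation in WT. Ikzf5 by genotype after stimulation was -1.5e-04 with a pseudocount of 5, -0.0082 with equal totals, -0.030 with edgeR and -0.022 with DESeq2. With each library left out, the range crossed 0 for Ikzf5 by genotype before (-0.97 to 0.38) and after stimulation (-0.36 to 0.36), by stimulation in DKO (-1.11 to 0.23) and as an interaction (-0.38 to 0.97), for Ikzf4 by genotype after stimulation (-0.21 to 0.30), for Ikzf2 by stimulation in WT (-0.033 to 0.10) and for Ikzf3 as an interaction (-0.28 to 0.0036). None of these was called. The causes were not tested. Calls over all genes ranged from 8 to 1321 by genotype before stimulation (730 as reported), 0 to 762 after it (42), 971 to 5232 by stimulation in WT (3593), 1752 to 4868 in DKO (3852) and 0 to 196 as an interaction (0). Genotype before stimulation had 70.8% of calls lower, 59.4% with equal totals and 53.7% with upper quartiles, and stimulation 56.0%, 18.6% and 50.6% in WT and 48.2%, 22.1% and 55.6% in DKO. Each group held 2 pools, and Ikzf5 had 53 to 108 reads a library.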
